A study of Mus musculus with 18 samples.

Results

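The adenosine receptors and the proteins that make, remove and carry adenosine were described here by the mRNA levels of 9 genes in 3 fat depots of the mouse. The members were chosen by symbol: the receptors Adora1, Adora2a, Adora2b and Adora3, the ectoenzymes Entpd1 and Nt5e, the enzymes Ada and Adk, and the transporter Slc29a1. They are 9 of the 52093 symbols in the deposited files, and each has 1 row there. RNA was sequenced from wild-type male mice labelled C57BL/6, 16 weeks old, after 12 weeks of feeding with a high-fat diet (HFD). The study names the substrain as C57BL/6NTac. There were 6 samples of adipocytes isolated from inguinal fat (iWAT), 6 of adipocytes isolated from epididymal fat (eWAT) and 6 of brown fat (BAT). White adipocytes were the floating cells left after collagenase digestion of the depot, whereas BAT was frozen and extracted as whole tissue, although 1 label calls it adipocytes. All groups shared the genotype, the sex and the diet. The treatment label of all 18 samples gives regular chow, against the HFD in their titles and in the design of the study, and they were treated as HFD samples. No mice on regular chow were analysed here.

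Adenosine outside the cell is made from ATP in steps on the cell surface. CD39 (Entpd1) removes phosphates from ATP and ADP, and CD73 (Nt5e) turns the remaining AMP into adenosine. The A1 and A3 receptors couple to Gi proteins, which lower cAMP, and the A2a and A2b receptors couple to Gs proteins, which raise it. In fat cells the A1 receptor is known for holding back lipolysis, and the A2a receptor has been linked to heat production in brown fat. The signal ends when the equilibrative transporter ENT1 (Slc29a1) takes adenosine into cells, where adenosine kinase (Adk) turns it into AMP or adenosine deaminase (Ada) turns it into inosine.

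Upstream sequences are shown for Adora1, Adora2b and Entpd1, because their mRNA levels order the tissues in opposite ways (Adora1 lowest in eWAT, Adora2b and Entpd1 highest there), and because for each of the 3 the RefSeq start coincides with the start of the row in the files. Each is the 250 bases before that start, 5′ to 3′ on the strand of the gene. They were taken from RefSeq promoter windows of the build GRCm38.p6 and placed by exact match on NCBIM37 (mm9), the build of the files, at chr1:136132035-136132284 on the minus strand for Adora1, chr11:62062236-62062485 on the plus strand for Adora2b and chr19:40686606-40686855 on the plus strand for Entpd1. Capitals mark 5 short motifs on either strand. Of these, ACGTG is the core of hypoxia-response elements, and TGACG is part of the cAMP response element. GGGCGG is the GC box and TATAA the TATA box. TGANTCA is the AP-1 site with any base allowed in the middle, a looser pattern than the site itself.
Adora1: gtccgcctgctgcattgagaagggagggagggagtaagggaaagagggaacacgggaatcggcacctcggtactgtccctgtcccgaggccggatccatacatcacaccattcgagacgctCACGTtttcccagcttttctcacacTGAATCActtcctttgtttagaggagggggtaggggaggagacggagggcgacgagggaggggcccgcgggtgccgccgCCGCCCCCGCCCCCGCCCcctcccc
Adora2b: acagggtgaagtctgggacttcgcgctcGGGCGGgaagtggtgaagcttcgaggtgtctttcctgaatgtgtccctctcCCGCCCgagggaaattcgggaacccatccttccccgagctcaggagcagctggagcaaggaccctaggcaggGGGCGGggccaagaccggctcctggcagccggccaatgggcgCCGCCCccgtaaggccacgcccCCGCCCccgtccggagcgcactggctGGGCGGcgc
Entpd1: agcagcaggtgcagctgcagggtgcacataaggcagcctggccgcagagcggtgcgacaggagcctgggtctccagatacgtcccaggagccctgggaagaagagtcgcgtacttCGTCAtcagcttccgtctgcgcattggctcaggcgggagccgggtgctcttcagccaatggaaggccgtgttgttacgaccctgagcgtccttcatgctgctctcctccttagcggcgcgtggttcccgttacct
The Adora1 window holds 3 GC boxes, 1 ACGTG and 1 TGANTCA match, which reads TGAATCA. The Adora2b window holds 6 GC boxes and no other of these motifs, and the Entpd1 window 1 TGACG. None of the member windows held an ACGTG match that overlapped with a TGACG match. GC content was 64.4%, 69.6% and 62.4%, beside a median of 52.4% over all 32851 windows. Of the 9 members, 8 have windows in the table (18 windows in all), and 10 of the 18 windows hold a GC box. Over all windows of the same length, 32.7% hold GGGCGG, 16.6% ACGTG, 17.8% TGACG, 22.8% TATAA and 6.7% TGANTCA. These matches are descriptions of the letters only.

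Between 24655056 and 42518483 reads per sample were counted on the rows of the files, with a median of 29536432. Any 2 samples of the same tissue differed beyond sampling noise (the chi-square was 14.3 times its degrees of freedom or more), so all were kept as separate samples. The labels do not say which samples came from separate mice, so p-values measure only the spread between these samples, which may be technical in part. The white depots shared sequencing lanes 1 and 2. BAT had lanes 3 and 4 to itself, and its lane and tissue cannot be told apart. In eWAT adipocytes, samples 1 and 3 stood apart: their 7 adipocyte markers (Adipoq, Plin1 and others) summed to 894 and 687 RPKM, against 1800 to 2380 in the other 4 samples. Member differences and receptor shares that rest on eWAT are also given without these 2 samples. RPKM (reads per kilobase of transcript, scaled to the total of the library) was used for levels. All tests used trimmed mean of M values (TMM) scaling, which sets libraries to one level by the genes in the middle of the range of differences. Without it the median gene was 0.87 (iWAT) or 0.89 (eWAT) log2 units higher in white adipocytes than in BAT, and 81.8% (iWAT) or 76.1% (eWAT) of the genes that passed were higher in the white adipocytes, against 50.6% and 49.8% with it. Levels are given in RPKM as deposited, and differences on the TMM scale. In such bulk samples, fewer cells of a type and less RNA per cell cannot be told apart.

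**Figure D1:**
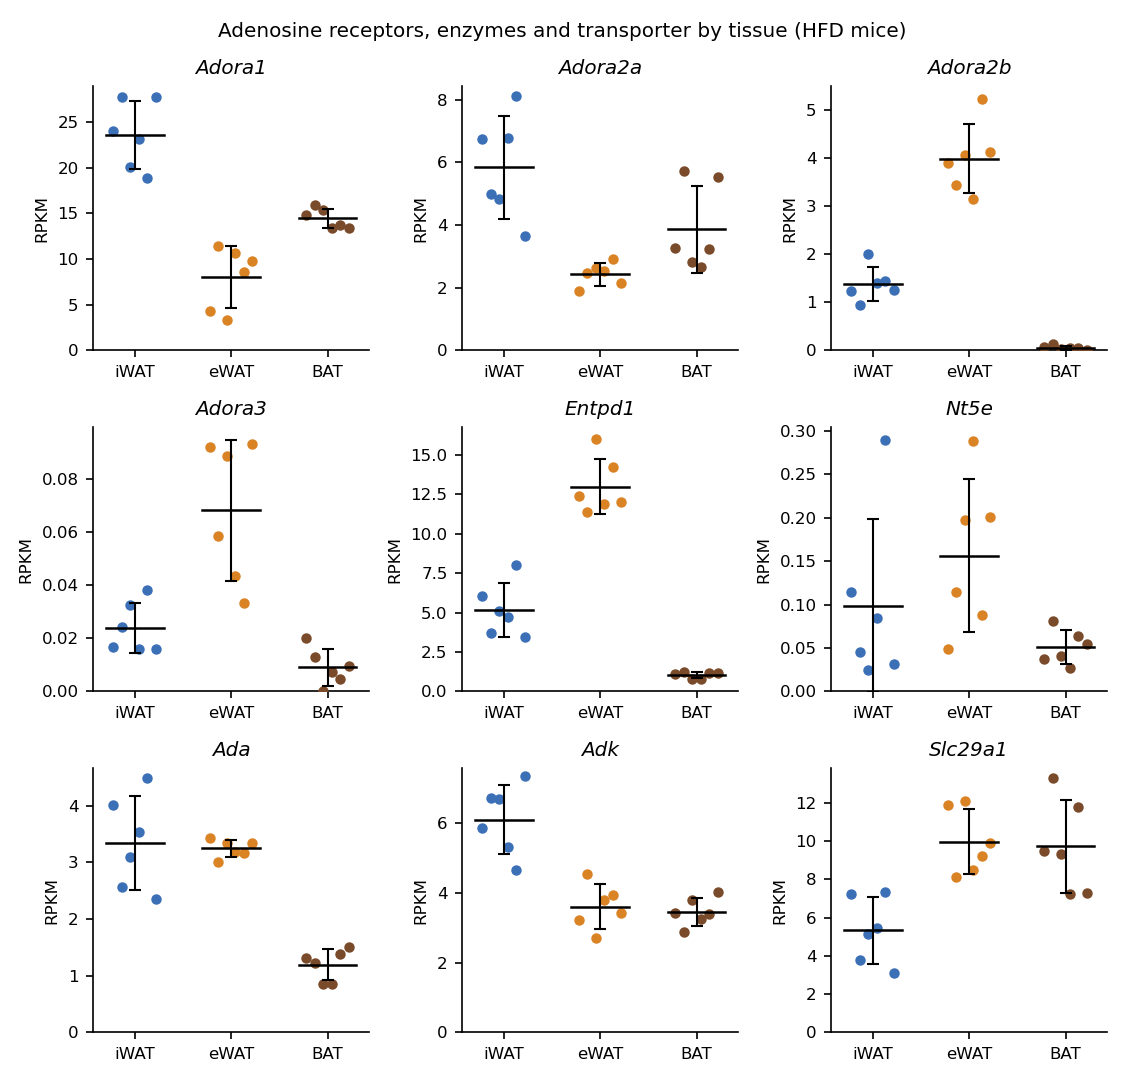
RPKM of the 9 genes in each of the 6 samples of iWAT adipocytes, eWAT adipocytes and BAT (linear axes from 0, 1 panel per gene). Points are samples, horizontal lines are means and bars are SD, drawn down to 0 at most. Adora2b and Entpd1 are highest in eWAT and lowest in BAT, whereas Adora1 is lowest in eWAT.

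Adora1, Adora2a and Adk were higher in iWAT than in eWAT adipocytes, and Adora2b, Entpd1 and Slc29a1 were higher in eWAT. Of the 8 members with enough reads to be tested, these 6 passed the test (edgeR quasi-likelihood test, Benjamini-Hochberg adjusted p under 0.05 over all genes), 3 in each direction. This count has to be read against the depots as a whole, in which 68.6% of 19623 genes passed, 34.1% higher in iWAT and 34.5% higher in eWAT. The RPKM of the same 6 members did not overlap between the depots, as for 44.0% of all genes tested. Ada and Nt5e did not pass. The count was also 6 of 8 without eWAT samples 1 and 3, where 11763 of 19542 genes passed.

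Against BAT, 4 of 8 tested members differed in iWAT adipocytes: Adora2b, Entpd1 and Ada were higher in iWAT and Slc29a1 was higher in BAT. Over all 19745 genes, 75.3% passed, 38.1% higher in iWAT and 37.2% higher in BAT. In eWAT adipocytes all 8 tested members differed from BAT, 4 higher in eWAT (Adora2b, Entpd1, Ada and Nt5e) and 4 higher in BAT (Adora1, Adora2a, Adk and Slc29a1, of which Adk and Slc29a1 turned to higher in eWAT without TMM scaling). Nt5e no longer passed there when same-numbered samples were treated as blocks. In that comparison 82.5% of 20076 genes passed, 41.1% higher in eWAT and 41.4% higher in BAT. RPKM ranges did not overlap for 5 of 8 members between iWAT and BAT (65.3% of all genes) and for 4 of 8 between eWAT and BAT (68.4%). The 3 comparisons share samples and are not independent of each other. Adora3 had too few reads for a test in any of them.

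Without eWAT samples 1 and 3, 16160 of 20002 genes passed between eWAT and BAT. All 8 tested members still differed, in the same directions. Their log2 values of eWAT over BAT were then -1.10 for Adora1, -1.20 for Adora2a, 5.46 for Adora2b, 3.02 for Entpd1, 1.15 for Nt5e, 0.84 for Ada, -0.40 for Adk and -0.69 for Slc29a1. Between iWAT and eWAT, Ada and Nt5e again did not pass, at 0.06 and -0.82.

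**Figure D2:**
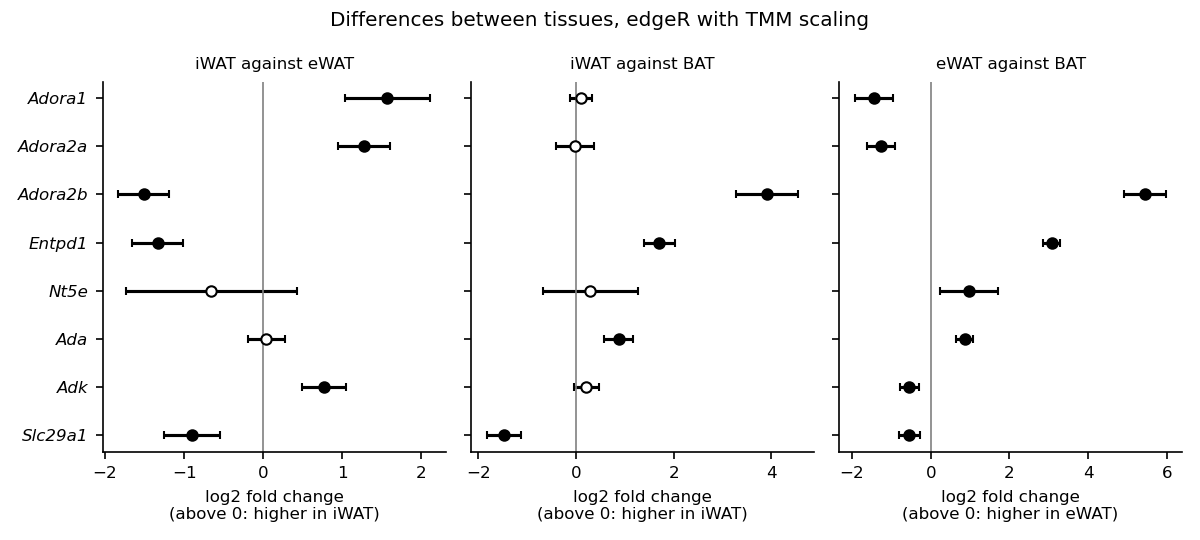
Log2 fold changes of the 8 tested members in the 3 comparisons (edgeR with TMM scaling, 6 samples per tissue). Points are estimates and bars 95% confidence intervals, and filled points passed the test. Adora2b against BAT shows the largest values, 3.91 for iWAT and 5.45 for eWAT.

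Adora1, the gene of the A1 receptor, had the highest RPKM of the 4 receptors in each tissue on average (chr1:136095799-136132034, minus strand, 3 exons). It ranged from 18.9 to 27.7 RPKM in iWAT adipocytes (median 23.5), from 3.33 to 11.4 in eWAT adipocytes (median 9.17) and from 13.4 to 15.9 in BAT (median 14.3). No eWAT sample reached the lowest iWAT or BAT sample. The mean was 23.6 ± 3.72 RPKM in iWAT and 8.0 ± 3.37 in eWAT (SD, n = 6 each), a 2.97-fold difference on the TMM scale (log2 fold change 1.57 ± 0.28 SE, edgeR adjusted p = 0.00024). The lowest eWAT values, 3.33 and 4.36 RPKM, came from samples 3 and 1, whose adipocyte markers were lowest. Without these samples the eWAT mean was 10.1 RPKM and the log2 fold change 1.23 (edgeR adjusted p = 1.7e-05). BAT (14.4 ± 1.09 RPKM) exceeded eWAT 2.72-fold (log2 fold change of eWAT over BAT -1.45 ± 0.25 SE, edgeR adjusted p = 5.7e-05). Between iWAT and BAT the RPKM ranges did not overlap, iWAT being higher, but on the TMM scale the difference was 0.10 log2 units (95% confidence interval -0.12 to 0.32, edgeR adjusted p = 0.41). Without TMM scaling it was 0.96 log2 units (edgeR adjusted p = 3.7e-07), so its size and whether it passed rest on the scaling. The estimate was higher for iWAT in both settings.

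The row of Adora1 overlaps Mybph, a gene on the opposite strand, by 2011 bases, and the counting of strands is not given in the sources used here. Mybph held 596 to 964 reads in iWAT, 105 to 400 in eWAT and 402 to 627 in BAT, where Adora1 held 3465 to 5257, 601 to 2342 and 1864 to 3726. With every Mybph read taken off, Adora1 was at 19.3 RPKM in iWAT, 6.62 in eWAT and 11.7 in BAT, in the same order as before.

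Adora2a, the gene of the Gs-coupled A2a receptor, followed the same order of the white depots at lower levels (chr10:74779688-74797537, plus strand). It ranged from 3.64 to 8.13 RPKM in iWAT (median 5.87), from 1.9 to 2.91 in eWAT (median 2.49) and from 2.65 to 5.73 in BAT (median 3.26). The iWAT and eWAT samples did not overlap, and those of BAT overlapped both. The mean was 5.85 ± 1.64 RPKM in iWAT and 2.43 ± 0.361 in eWAT (2.41-fold, log2 fold change 1.27 ± 0.17 SE, edgeR adjusted p = 2.3e-05). The log2 fold change was 1.21 without eWAT samples 1 and 3. BAT stood at 3.87 ± 1.39 RPKM, 2.39-fold above eWAT on the TMM scale (log2 fold change of eWAT over BAT -1.26 ± 0.18 SE, edgeR adjusted p = 9.8e-06). Without TMM scaling this was -0.37 and did not pass (edgeR adjusted p = 0.096). Between iWAT and BAT the difference was -0.02 log2 units (95% confidence interval -0.41 to 0.37) and became 0.83 without TMM scaling (edgeR adjusted p = 0.0027). In BAT, samples 2 and 18 held the most Adora2a (5.73 and 5.53 RPKM), and the other 4 lay at 3.28 or below.

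Adora2b, the gene of the other Gs-coupled receptor, had the opposite order in the white depots and was almost absent from the BAT libraries (chr11:62062486-62079955, plus strand, 2 exons). It ranged from 3.15 to 5.23 RPKM in eWAT (median 3.97), from 0.953 to 2.01 in iWAT (median 1.33) and from 0.0159 to 0.141 in BAT (median 0.0466). The samples of the 3 tissues did not overlap. In BAT these values stand for 1 to 10 reads per sample and 21 in all, and 3 reads correspond to at most 0.0709 RPKM there. The mean of 3.98 ± 0.718 RPKM in eWAT was 2.85-fold above the 1.39 ± 0.355 in iWAT on the TMM scale (log2 fold change of iWAT over eWAT -1.51 ± 0.16 SE, edgeR adjusted p = 4.8e-06). Without eWAT samples 1 and 3 the eWAT mean was 3.98 RPKM and the log2 fold change -1.53. Against BAT the log2 fold change was 3.91 ± 0.33 SE for iWAT (edgeR adjusted p = 2.7e-08) and 5.45 ± 0.28 SE for eWAT (edgeR adjusted p = 6.6e-11). Zswim7, which overlaps the row on the opposite strand, held a mean of 155 reads in BAT, where Adora2b held 3.5.

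Adora3, the gene of the Gi-coupled A3 receptor, was near the limit of detection. Its row (chr3:105658445-105731215, plus strand, 13 exons) is wider than the gene model of the receptor, so its reads are uncertain. Counts were 3 to 7 reads per sample in iWAT, 6 to 23 in eWAT and 0 to 4 in BAT, or at most 0.0382, 0.0934 and 0.02 RPKM. I830077J02Rik overlaps the row on the opposite strand by 2407 bases. It held means of 8.33, 18.3 and 8.0 reads in iWAT, eWAT and BAT, where Adora3 held 4.33, 13.8 and 1.83. The mean count of Adora3 stayed below the minimum of 10 that a test required. With no such minimum, Adora3 was 1.48 log2 units lower in iWAT than in eWAT (log2 fold change -1.48 ± 0.35 SE, edgeR adjusted p = 0.0028). It was 2.32 higher in eWAT than in BAT (0.47 SE, edgeR adjusted p = 0.00018) and did not pass between iWAT and BAT (0.79 ± 0.52 SE, edgeR adjusted p = 0.22).

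Adora2b held a larger share of the receptor mRNA in every eWAT sample than in any iWAT or BAT sample. Adora1 made up 76.1 ± 6.68% of the summed RPKM of the 4 receptors in iWAT, 53.0 ± 13.3% in eWAT and 78.9 ± 5.71% in BAT (mean ± SD, n = 6). Adora2a held similar shares throughout, 19.2 ± 6.04%, 17.5 ± 4.65% and 20.8 ± 5.66%. Adora2b held 4.6 ± 1.6% in iWAT, 29.0 ± 8.96% in eWAT and 0.296 ± 0.201% in BAT. Its lowest share in an eWAT sample, 19.3%, exceeded its highest in an iWAT sample, 7.48%. Adora2b exceeded Adora2a in every eWAT sample (1.25 to 2.06 times) and was at 0.179 to 0.418 times Adora2a in iWAT. In eWAT samples 1 and 3 the Adora1 share was 42.6% and 32.9% and in the other 4 samples 51.1% to 65.7%. Without samples 1 and 3 the mean eWAT shares were 60.6% for Adora1, 15.1% for Adora2a and 24.0% for Adora2b. The summed RPKM of the 4 receptors was 26.9 to 33.7 in iWAT, 10.1 to 17.3 in eWAT and 16.1 to 21.8 in BAT. With the deposited RPKM divided by TMM factors it was 21.7 to 29.6 in iWAT, 7.69 to 13.8 in eWAT and 24.1 to 30 in BAT. The factors were fitted to read counts, whose library totals differ from those behind the RPKM. Reads on the rows were 37023490 against a total of 32993176 behind the RPKM in BAT sample 1, and 28354340 against 29580381 in iWAT sample 1. This scale is thus not that of the tests, and it does not decide the order of iWAT and BAT. The sum was lowest in eWAT on both scales.

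**Figure D3:**
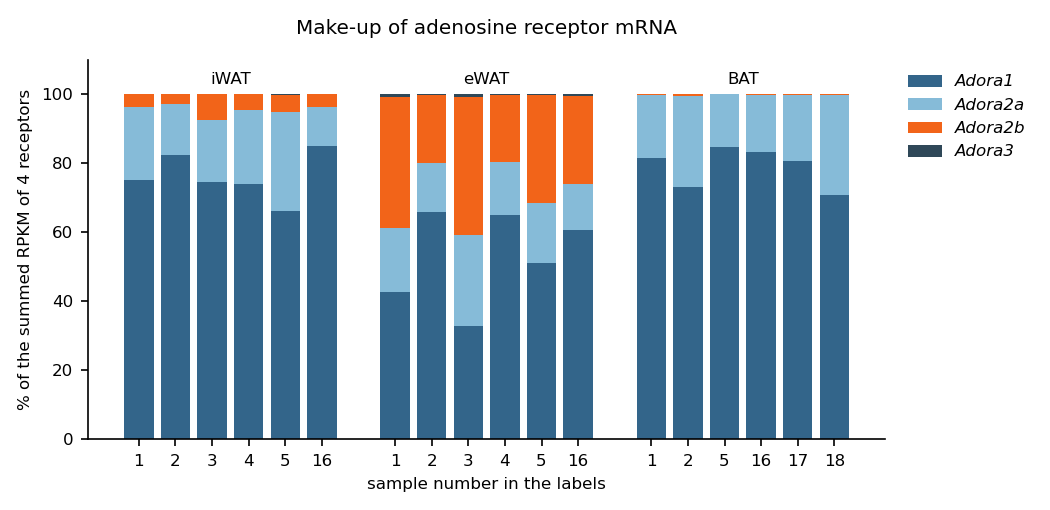
Share of each adenosine receptor in the summed RPKM of the 4 receptors, in percent, for the 18 samples (stacked bars, sample numbers as in the labels). The orange Adora2b part is 19.3% to 40.1% in eWAT, 2.83% to 7.48% in iWAT and below 1% in BAT.

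Of the surface enzymes that make adenosine, Entpd1 was abundant and Nt5e was scarce. Entpd1 (chr19:40686856-40827279, plus strand) ranged from 11.4 to 16 RPKM in eWAT (median 12.2), from 3.43 to 8.0 in iWAT (median 4.92) and from 0.775 to 1.2 in BAT (median 1.12). The tissues did not overlap, and the order was that of Adora2b. The mean of 13 ± 1.78 RPKM in eWAT was 2.52-fold above the 5.16 ± 1.69 in iWAT on the TMM scale (log2 fold change of iWAT over eWAT -1.34 ± 0.17 SE, edgeR adjusted p = 1.5e-05). Without eWAT samples 1 and 3 the log2 fold change was -1.28. BAT, at 1.03 ± 0.19 RPKM, was below iWAT 3.27-fold (log2 fold change of iWAT over BAT 1.71 ± 0.16 SE, edgeR adjusted p = 1.3e-07). It was below eWAT 8.41-fold (log2 fold change of eWAT over BAT 3.07 ± 0.11 SE, edgeR adjusted p = 1.4e-12).

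Nt5e (chr9:88222447-88266927, plus strand, 8 exons) stayed under 0.3 RPKM in all 18 samples. It ranged from 0.0247 to 0.29 RPKM in iWAT (6 to 70 reads), from 0.0486 to 0.288 in eWAT (16 to 61 reads) and from 0.0273 to 0.0811 in BAT (5 to 25 reads), and the 3 tissues overlapped. iWAT sample 5 held 0.29 RPKM, and the other 5 iWAT samples 0.114 or less. Between iWAT and eWAT the log2 fold change was -0.65 ± 0.55 SE (edgeR adjusted p = 0.3), and without iWAT sample 5 it was -1.33 (edgeR adjusted p = 0.027). Between iWAT and BAT it was 0.29 ± 0.49 SE (edgeR adjusted p = 0.6), and without iWAT sample 5 it turned to -0.38 (edgeR adjusted p = 0.34). The difference of eWAT from BAT passed narrowly (log2 fold change 0.98 ± 0.38 SE, edgeR adjusted p = 0.027). Leaving out eWAT sample 4 or 16 or BAT sample 1, 5 or 16 raised the adjusted p to between 0.053 and 0.071. The difference also did not pass when same-numbered samples were treated as blocks. Entpd1 exceeded Nt5e per length in every sample, by 27.6 to 207 times in iWAT, 41.4 to 256 times in eWAT and 14.8 to 29.1 times in BAT. The rows of Nt5e (7996 bases) and Entpd1 (6862) are longer than the exons of their GENCODE models (3580 and 5580), and with those lengths the ratios were 15.2 to 114, 22.8 to 141 and 8.14 to 16.

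Of the enzymes that remove adenosine, Ada did not separate the white depots and Adk did. Ada (chr2:163549521-163575975, minus strand, 12 exons) ranged from 2.36 to 4.48 RPKM in iWAT (median 3.32), from 3.01 to 3.43 in eWAT (median 3.26) and from 0.854 to 1.5 in BAT (median 1.27). BAT lay below all white samples, while the white depots overlapped. The difference between the white depots was 0.04 log2 units (95% confidence interval -0.20 to 0.28, edgeR adjusted p = 0.78). Ada was 1.83-fold higher in iWAT and 1.81-fold higher in eWAT than in BAT on the TMM scale (edgeR adjusted p = 7.4e-05 and 2.7e-06, with log2 values of 0.87 ± 0.15 and 0.86 ± 0.11 SE). Its row overlaps Pkig on the opposite strand by 2374 bases, and Pkig held as many reads (means of 527, 524 and 213 in iWAT, eWAT and BAT, where Ada had 481, 506 and 186), so the Ada counts are uncertain.

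Adk (chr14:21871833-22267784, plus strand, 13 exons) ranged from 4.67 to 7.35 RPKM in iWAT (median 6.27), from 2.7 to 4.55 in eWAT (median 3.62) and from 2.89 to 4.02 in BAT (median 3.41). All iWAT samples exceeded all others in RPKM. The mean was 6.1 ± 0.998 RPKM in iWAT and 3.61 ± 0.639 in eWAT (1.71-fold, log2 fold change 0.77 ± 0.14 SE, edgeR adjusted p = 0.00037). It was 0.63 without eWAT samples 1 and 3. Against BAT (3.47 ± 0.403 RPKM) the result rested on the scaling. On the TMM scale iWAT did not differ past the threshold (0.21 log2 units, 95% confidence interval -0.05 to 0.47, edgeR adjusted p = 0.16, or 0.04 without iWAT sample 5) and eWAT was lower (-0.54 ± 0.13 SE, edgeR adjusted p = 0.00097). Without TMM scaling iWAT was 1.07 log2 units higher than BAT (edgeR adjusted p = 1.8e-07) and eWAT turned to 0.38 units higher (edgeR adjusted p = 0.007). Adk exceeded Ada per length in all iWAT and BAT samples (1.04 to 3.11 and 2.34 to 4.42 times), and was at 0.809 to 1.51 times Ada in eWAT. The rows of Adk (7654 bases) and Ada (4801) are also longer than the exons of their GENCODE models (1701 and 2002). With those lengths Adk exceeded Ada in every sample, by 1.96 to 5.83 times in iWAT, 1.52 to 2.83 in eWAT and 4.4 to 8.3 in BAT, so the order of the 2 genes in eWAT rests on the length used.

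Slc29a1, the gene of the transporter ENT1, was higher in eWAT than in iWAT (chr17:45722149-45736555, minus strand, 16 exons). It ranged from 8.14 to 12.1 RPKM in eWAT (median 9.54), from 3.08 to 7.35 in iWAT (median 5.29) and from 7.21 to 13.3 in BAT (median 9.38). The white depots did not overlap, and BAT overlapped both. The mean of 9.95 ± 1.7 RPKM in eWAT was 1.87-fold above the 5.34 ± 1.74 in iWAT (log2 fold change of iWAT over eWAT -0.90 ± 0.18 SE, edgeR adjusted p = 0.00068), with a log2 fold change of -0.76 without eWAT samples 1 and 3. BAT, at 9.72 ± 2.43 RPKM, was 2.78-fold above iWAT on the TMM scale (log2 fold change of iWAT over BAT -1.48 ± 0.18 SE, edgeR adjusted p = 2.4e-06). It was also 1.46-fold above eWAT (log2 fold change of eWAT over BAT -0.54 ± 0.14 SE, edgeR adjusted p = 0.0018), a direction that turned to 0.35 without TMM scaling (edgeR adjusted p = 0.054). The transcripts ENSMUSG00000067389 and AK143660, which overlap Slc29a1 on the opposite strand, held up to 18.2% and 38.1% as many reads as Slc29a1 in a tissue, and their reads could not be told apart from its own.

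The differences between the white depots were also seen within each sequencing lane (2 iWAT and 4 eWAT samples in lane 1, 4 and 2 in lane 2, differences of mean log2 TMM-scaled RPKM with a pseudocount of 0.1, no test). They were 1.55 and 1.95 for Adora1, 1.13 and 1.52 for Adora2a, and 0.793 and 0.901 for Adk in lanes 1 and 2. For Adora2b they were -1.19 and -1.5, for Entpd1 -1.19 and -1.27, and for Slc29a1 -0.562 and -1.11. The 6 members that passed the test thus kept their direction in both lanes.

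Within iWAT, sample 5 had the highest Adora2a, Entpd1, Nt5e, Ada and Slc29a1 and the lowest Adora1 and Adk of the 6 samples, and sample 16 had the lowest Adora2a, Entpd1, Ada and Slc29a1 and the highest Adk. The same samples lay at the ends of the range of endothelial, mural, and progenitor and fibroblast markers. The 7 endothelial markers (Cdh5, Pecam1 and others) summed to 556 RPKM in sample 5 and to 195 in sample 16, the highest and lowest of the group. The mural list summed to 239 and 81.6 RPKM in samples 5 and 16, and the progenitor and fibroblast list to 268 and 117. The adipocyte markers summed to 3620 RPKM in sample 5, the lowest, and to 5160 in sample 16, below the highest of 5400. In eWAT, samples 1 and 3 had the lowest Adora1 and the highest macrophage marker sums (1240 and 1310 RPKM, against 865 to 1000 in the other 4 samples). The part of these markers in the values of the members was not tested.

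Between tissues, markers of other cells moved with several members. All 7 macrophage markers (among them Cd68, Emr1 and Csf1r) were higher in eWAT than in iWAT and higher in both than in BAT, and their summed level was 865 to 1310 RPKM in eWAT, 171 to 327 in iWAT and 5.8 to 11.4 in BAT. This is the order of Adora2b and Entpd1. Per unit of Cd68 RPKM, Adora2b was at 0.00574 to 0.00967 in eWAT, 0.00885 to 0.0109 in iWAT and 0.00396 to 0.0375 in BAT. These ranges overlapped, but the BAT values rest on 1 to 10 Adora2b reads per sample and decide nothing. Ratios to the other macrophage markers were not taken. Entpd1 was at 0.0183 to 0.0263 per unit of Cd68 in eWAT, 0.0276 to 0.0527 in iWAT and 0.256 to 0.498 in BAT. All 7 adipocyte markers passed the test as higher in iWAT than in eWAT, with sums of 3620 to 5400 RPKM in iWAT, 687 to 2380 in eWAT and 883 to 1130 in BAT. Per unit of Plin1 RPKM, a coat protein of lipid droplets, Adora1 was at 0.0587 to 0.0705 in iWAT, 0.0593 to 0.0765 in eWAT and 0.0657 to 0.0854 in BAT. Per unit of Adipoq it was at 0.0183 to 0.0225, 0.0183 to 0.0247 and 0.0512 to 0.0709. All 7 endothelial markers were higher in iWAT (sum 195 to 556 RPKM) than in eWAT (64.9 to 158), as was Adora2a, and BAT lay at 88.8 to 197. Per unit of Cdh5 RPKM, Adora2a was at 0.0446 to 0.0632 in iWAT, 0.0569 to 0.129 in eWAT and 0.06 to 0.13 in BAT. The part of these cells in the differences of the members was not tested.

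The labelled tissues carried their own markers. The 6 brown adipocyte markers (Ucp1 and others) summed to 2940 to 4300 RPKM in BAT, 31.9 to 50.3 in iWAT and 6.6 to 17.9 in eWAT. Markers of T and B cells, mast cells and neutrophils stayed below 10 RPKM in sum in every sample. In BAT, skeletal muscle markers ran from 1.52 to 106 RPKM and those of Schwann cells and nerve from 50.8 to 67.1. The progenitor and fibroblast list summed to 117 to 268 RPKM in iWAT, 101 to 134 in eWAT and 51.3 to 70.3 in BAT, and the mural list to 81.6 to 239, 23.6 to 57.4 and 94.9 to 138. The mesothelial list summed to 1.97 to 2.7, 2.36 to 4.96 and 7.05 to 9.91, but its level in BAT was that of Lrrn4 (mean 8.3 RPKM). Msln, Upk3b and Wt1 were at 0.31, 0.637 and 0.201 RPKM in eWAT and below 0.02 in iWAT and BAT, and all 3 passed the test as higher in eWAT than in either.

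**Figure D4:**
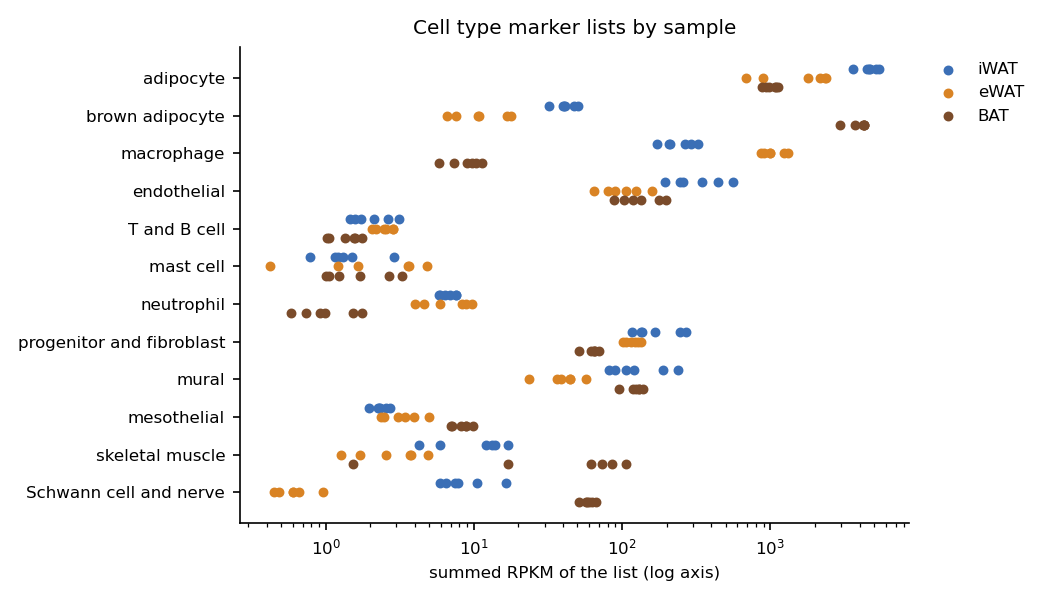
Summed RPKM of 12 cell type marker lists in the 18 samples (log axis, 1 point per sample, coloured by tissue). Macrophage markers reach 1310 RPKM in eWAT adipocytes and at most 11.4 in BAT, and the lowest adipocyte sums, 687 and 894 RPKM in the white depots, are eWAT samples 3 and 1.

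The genes whose pattern over the 18 samples was most like that of each member were found by the root mean square difference of log2 TMM-scaled RPKM (pseudocount 0.1) after each gene's mean was taken off, among 14156 genes with a mean of at least 1 RPKM. Most of this likeness is that of the 3 tissue means. For Adora1 they were its overlapping neighbour Mybph (0.107), Plin1 (0.131) and the protein kinase D gene Prkd1 (0.146), where Adora1 itself varied by 0.966 around its mean. For Adora2a they were the chemokine gene Cxcl12 (0.256), Ston1 (0.259) and Gfod1 (0.269), beside 0.732 for Adora2a itself. For Adora2b they were Aldh3b1 (0.263), Sh3bp2 (0.281) and Ccdc99 (0.286), beside 1.77. For Entpd1 they were Ckap4 (0.141), Cmtm3 (0.142) and the syndecan gene Sdc3 (0.167), beside 1.1. The nearest genes of Ada and Slc29a1 were opposite-strand neighbours that overlap them, Pkig (0.0934) and ENSMUSG00000067389 (0.135). For Adk they were LOC66376 (0.151), Mosc2 (0.152) and Syap1 (0.153), beside 0.472. Nt5e (nearest Fmod, 0.213) and Adora3 (nearest Adprh, 0.109) lay near or under the pseudocount, which makes their likeness hard to read.

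The wider pathway around the members was taken as 59 other genes in 5 lists. Between iWAT and eWAT, 35 of the 48 that could be tested passed, 18 higher in iWAT and 17 higher in eWAT, with a median log2 fold change of 0.02, beside 0.00143 over all genes tested. Against BAT, 42 of 50 passed for iWAT (21 in each direction) and 44 of 50 for eWAT (21 higher in eWAT and 23 higher in BAT). These shares stand beside the 68.6%, 75.3% and 82.5% of all genes given above.

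Among the other ectonucleotidases, a list taken broadly to hold Enpp2, Cd38 and Bst1 too, 7 of 8 tested genes differed between the white depots. Of these, 5 were higher in iWAT, where 34.1% of all genes were higher. The median log2 fold change of the list was 0.97. Enpp2, which encodes autotaxin, stood at 30.8 ± 7.27 RPKM in iWAT and 10.4 ± 4.64 in eWAT (log2 fold change 1.58 ± 0.29 SE, edgeR adjusted p = 0.00035). Cd38, an NAD-consuming surface enzyme, stood at 5.95 ± 2.8 and 2.18 ± 0.528 RPKM (1.45 ± 0.27 SE). Bst1, a relative of Cd38, went the other way, with 1.59 ± 0.47 RPKM in iWAT, 10.3 ± 3.17 in eWAT and 0.0679 ± 0.0448 in BAT (log2 fold change of iWAT over eWAT -2.69 ± 0.23 SE, edgeR adjusted p = 6.4e-07). Enpp1 was at 0.218 ± 0.0589 RPKM in iWAT and 1.08 ± 0.187 in eWAT (log2 fold change -2.30 ± 0.16 SE). Against BAT, 6 of 8 ectonucleotidases passed for either white depot, 5 higher in iWAT and 4 higher in eWAT. Alpl, tissue-nonspecific alkaline phosphatase, was higher in BAT (1.91 ± 0.365 RPKM) than in eWAT (0.186 ± 0.0558, log2 fold change of eWAT over BAT -3.96 ± 0.18 SE).

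The P2 receptors, many of which respond to nucleotides that Entpd1 degrades, were mostly higher in eWAT than in iWAT. Of 10 tested, 6 passed as higher in eWAT and 2 as higher in iWAT (median log2 fold change -0.995), where 34.5% of all genes were higher in eWAT. P2ry6, a receptor for UDP, stood at 7.77 ± 1.56 RPKM in iWAT, 32.5 ± 6.25 in eWAT and 0.566 ± 0.199 in BAT (log2 fold changes of 3.15 ± 0.18 SE for iWAT and 5.24 ± 0.18 for eWAT over BAT). P2rx7, an ATP-gated channel, stood at 3.54 ± 0.791, 9.53 ± 1.7 and 0.359 ± 0.0945 RPKM. Both followed the order of the macrophage markers, of which Cd68 was at 140 ± 32.8 RPKM in iWAT, 567 ± 93.3 in eWAT and 3.11 ± 0.813 in BAT, and the part of these cells was not tested. P2rx5 had the reverse order, with 17.1 ± 2.05 RPKM in BAT, 1.96 ± 0.421 in iWAT and 0.982 ± 0.459 in eWAT (log2 fold changes over BAT -3.73 ± 0.16 and -4.73 ± 0.27 SE). Of 11 P2 receptors tested against BAT, 10 passed for iWAT (5 in each direction) and 11 for eWAT (6 higher in eWAT).

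Nucleoside transporters and channels that release ATP were split. Between the white depots 4 of 6 passed, 2 in each direction. Panx1, a channel through which ATP leaves cells, was at 1.47 ± 0.208 RPKM in iWAT, 7.96 ± 3.49 in eWAT and 0.219 ± 0.0459 in BAT (log2 fold change of iWAT over eWAT -2.43 ± 0.29 SE, edgeR adjusted p = 9.1e-06). Gja1, connexin 43 by its protein name, was at 13.1 ± 5.1, 5.37 ± 1.91 and 23.3 ± 3.18 RPKM (log2 fold change of iWAT over eWAT 1.28 ± 0.26 SE). Against BAT 5 of 6 passed for iWAT, 2 higher in iWAT, and 6 of 6 for eWAT, 2 higher in eWAT.

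Of the intracellular nucleotidases and NTPDases, 6 of 9 differed between the white depots (3 in each direction), 6 of 9 between iWAT and BAT (2 higher in iWAT) and 7 of 9 between eWAT and BAT (3 higher in eWAT). Of the purine and S-adenosylhomocysteine enzymes, 10 of 15 differed between the white depots (6 higher in iWAT), 15 of 16 between iWAT and BAT (7 higher in iWAT) and 14 of 16 between eWAT and BAT (6 higher in eWAT). Ak1, an adenylate kinase, was at 13.6 ± 1.67 RPKM in BAT and 2.32 ± 0.306 in iWAT and 1.85 ± 0.176 in eWAT (log2 fold changes over BAT -3.16 ± 0.11 and -3.47 ± 0.10 SE). Ahcyl1, a relative of the enzyme that splits S-adenosylhomocysteine into adenosine and homocysteine, was at 60.0 ± 4.46 RPKM in BAT and 14.4 ± 0.967 in iWAT (log2 fold change of iWAT over BAT -2.68 ± 0.10 SE, edgeR adjusted p = 2.4e-12).

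**Figure D5:**
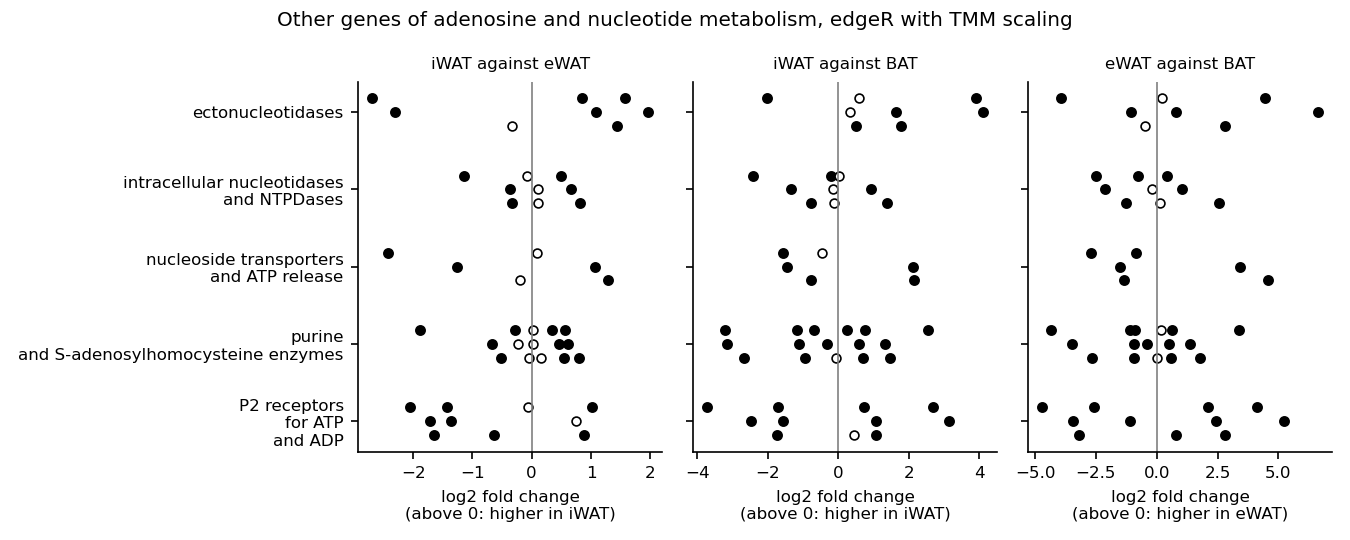
Log2 fold changes of the other genes of adenosine and nucleotide metabolism, by list, in the 3 comparisons (edgeR with TMM scaling). Each point is 1 gene and filled points passed the test. Every list holds genes on both sides of 0 in each comparison, and P2ry6 and Bst1 are among those farthest above 0 against BAT in eWAT, at 5.24 and 6.64.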

How the data were processed

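The authors trimmed reads with cutadapt 1.16 and aligned them with HISAT2 2.1.0 to mm9, per the processing notes in the labels; the counting program, the annotation and the strand setting are not given in the sources used here. The deposited tables hold, for each of 53445 transcript rows, a read count and an RPKM value calculated by the authors. Of symbols with several rows, 1220 in all, the row with the highest mean RPKM was kept. Samples were grouped by tissue from their titles, with 6 per tissue. The members, the gene lists and the tests were chosen with earlier results of these data known.

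Counts were compared with edgeR 4.0.16 in R 4.3.3 (glmQLFit and glmQLFTest, two-sided, TMM), each comparison on its own 12 samples, for genes whose mean count reached 10. The Benjamini-Hochberg adjustment ran over every gene tested (threshold 0.05), SE was the log2 fold change over the root of F, and 95% intervals followed from it. Intervals, SE and reads at the floor of 3 cover these libraries only, not PCR duplication. The script was tested on simulated data. Alternatives were a replicate block, DESeq2 1.42.0, no TMM, no filter, limma 3.58.1 on log2(RPKM + 0.1 or 1), summed rows, all 18 samples in one fit, lane, single samples left out and, added after the data were seen, single lanes, eWAT samples 1 and 3 left out, Mybph reads taken off and gene-model lengths. Named genes are all members, per comparison up to 3 pathway genes per direction with the largest change at 1 RPKM or more, marker genes, and the 3 genes most like each member. Figures used matplotlib 3.10.9. Promoter matches used the RefSeq table.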

Additional observations from a re-analysis of the deposited data

Results flagged for a closer look

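In iWAT adipocytes, Nt5e in sample 5 stood at 0.29 RPKM (70 reads), far from the other 5 samples, which lay between 0.0247 and 0.114. Its gap to the nearest of them was 0.663 of the whole range, above the critical value of Dixon's test for 6 samples. Chance flags about 1 in 20 groups, which gives 1.35 for the 27 groups of 6 that were checked, and 1 was found. The same sample had the highest Adora2a, Entpd1, Ada and Slc29a1 in iWAT.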

How the results depend on the processing

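The count of members past the threshold kept within 1.5 times its value under all alternatives for iWAT against eWAT and for eWAT against BAT. For iWAT against BAT it was 8 without TMM scaling and 7 with limma at either pseudocount, beside 4. Over all genes, 16757 of 19745 passed without TMM scaling and 17154 and 17162 of 21613 with limma, beside 14864 of 19745. The direction of 5 differences turned. Adk between eWAT and BAT went to 0.3797 log2 units without TMM scaling and to 0.04473 and 0.03746 with limma on log2(RPKM + 0.1) and log2(RPKM + 1). Slc29a1 in the same comparison went to 0.354, 0.05322 and 0.04715. Both limma fits use RPKM, which holds no TMM scaling. Adora2a between iWAT and BAT, near 0 throughout, went to 0.06258 with the replicate block, 0.8334 without TMM scaling, 0.07772 without the filter, and 0.6024 and 0.5007 with limma, and ranged from -0.1177 to 0.1064 with single samples left out. Ada between iWAT and eWAT went to -0.03049 without TMM scaling and -0.0188 within lane 2, and ranged from -0.04266 to 0.1174 with single samples left out. Nt5e between iWAT and BAT ranged from -0.3843 to 0.4738, the lowest without iWAT sample 5. In reads, not per length, Adora1 held 88.8%, 75.0% and 89.9% of the receptor total in iWAT, eWAT and BAT, Adora2a 9.48%, 10.9% and 9.98%, and Adora2b 1.64% in iWAT and 13.2% in eWAT. Of 230 log2 fold changes of members under other settings, 205 kept direction and side of the threshold or stayed within the spread, as did 275 of 288 with single samples left out. Of 66 tissue levels under other settings, 17 moved by more than the SD, 15 of them among the 27 with TMM scaling. There BAT levels rose (Adora1 to 22.1, Slc29a1 to 14.7 and Adk to 5.33 RPKM). Those levels are the deposited RPKM divided by TMM factors fitted to the counts, which is not the scale of the tests. By them Adora1 and Adk were lower in iWAT (19.6 and 5.09) than in BAT. The tests put iWAT 0.10 and 0.21 log2 units higher, neither past the threshold.

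Same-numbered samples did not deviate together: the correlation of their deviations ran from -0.25 to 0.438 between iWAT and eWAT (1 of 6 pairs over 0.1), from -0.143 to 0.0959 between iWAT and BAT and from -0.0509 to 0.0524 between eWAT and BAT, and 1 sample in each comparison correlated best with its own number. This does not exclude that same-numbered samples came from the same mouse, but they were taken to share only a number. With the replicate block, 12836, 12555 and 15149 genes passed, beside 13454, 14864 and 16561, and 6, 4 and 7 members. Nt5e between eWAT and BAT, at 0.5272 with the block (edgeR adjusted p = 0.23), was the member that no longer passed. Depth limits Adora3, Nt5e and, in BAT, Adora2b, which rest on at most 23, 70 and 10 reads per sample.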
